A study of Mus musculus with 96 samples.

Results

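Iron uptake, storage and export were followed through 9 genes: Cybrd1, Slc11a2, Slc40a1, Heph, Tfrc, Fth1, Ftl1, Ireb2 and Aco1. These genes were chosen with earlier results of these data known. All 9 were found among the 55536 genes of the deposited expression tables. The material was mouse intestinal organoids, epithelial cultures grown from primary tissue of the C57BL/6 strain, in which the circadian clock was synchronized with dexamethasone, a synthetic glucocorticoid, at 0.1 µM for 1 h. The study crossed Apc, a suppressor of Wnt signalling whose Min allele causes intestinal polyps, with Bmal1 (gene symbol Arntl), a transcription factor without which the clock does not run. The 4 genotypes were APC+/+;BMAL1+/+ (called control here), APC+/+;BMAL1-/- (Bmal1-null), APCmin/-;BMAL1+/+ (Apc-min) and APCmin/-;BMAL1-/- (Apc-min Bmal1-null, called double-mutant). Libraries were collected every 2 h from 24 to 46 h after synchronization, and 22 libraries per genotype, 88 in all, carry values. Each genotype was represented by 2 organoid lines, and the line behind each library is not stated in the labels. Both Apc-min genotypes were grown in EN medium and the other genotypes in ENR medium, so Apc genotype and medium cannot be told apart in any comparison below.

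Dietary iron enters the enterocyte in steps. Cybrd1 encodes a ferric reductase of the apical membrane (duodenal cytochrome b), and Slc11a2 encodes DMT1, the transporter that carries ferrous iron across that membrane. Inside the cell, iron that is not used is stored in ferritin, a shell built of a heavy chain with ferroxidase activity (Fth1) and a light chain (Ftl1). Iron leaves through ferroportin (Slc40a1), the only known cellular iron exporter, at the basolateral membrane, where the copper-containing oxidase hephaestin (Heph) converts it to the ferric form for transferrin. The transferrin receptor (Tfrc) brings transferrin-bound iron into the cell from outside and is abundant in proliferating crypt cells. A pair of iron regulatory proteins, encoded by Aco1 (IRP1, which is a cytosolic aconitase when it holds an iron-sulfur cluster) and Ireb2 (IRP2), bind a hairpin called the iron-responsive element in the messages of several of these genes. In a 5′ untranslated region the bound protein blocks translation, and in the 3′ untranslated region of Tfrc it protects the message from decay.

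The hairpins are shown because those found lay in the 5′ untranslated region of some messages and in the 3′ untranslated region of Tfrc. A search was made for CNNNNNCAGTGN with A, C or T as its last base, read on the transcript strand. It required 5 of 5 paired bases on the upper stem and at least 3 of 5 on the lower stem (G-T pairs allowed). Matches were found in 68 of 21901 protein-coding genes (0.31%) of the GENCODE annotation of GRCm38, and in 4 of the 9 iron genes. The capitals mark the bulged C and the CAGTG of the loop, the lines run 5′ to 3′, and each sequence is 29 bases of the annotated transcript.
Fth1, 5′ untranslated region, chr19:9982732-9982760, plus strand: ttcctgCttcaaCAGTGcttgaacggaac
Ftl1, 5′ untranslated region, chr7:45459779-45459807, minus strand: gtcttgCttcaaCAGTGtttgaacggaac
Slc40a1, 5′ untranslated region, chr1:45925465-45925493, minus strand: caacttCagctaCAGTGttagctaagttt
Tfrc, 3′ untranslated region, chr16:32631219-32631247, plus strand: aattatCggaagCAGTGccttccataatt
Tfrc, 3′ untranslated region, chr16:32631598-32631626, plus strand: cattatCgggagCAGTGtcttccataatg
Tfrc, 3′ untranslated region, chr16:32631663-32631691, plus strand: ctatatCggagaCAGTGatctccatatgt
Tfrc, 3′ untranslated region, chr16:32631710-32631738, plus strand: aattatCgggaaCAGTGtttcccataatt
Tfrc was the only gene of the annotation with 3 or more such matches. The Slc40a1 site lies in 1 of its 4 annotated coding transcripts, and the Fth1 site in 4 of 5. No match with these stems was found in the transcripts of Cybrd1, Slc11a2, Heph, Ireb2 and Aco1, which says only that this search did not find one. In the RefSeq promoter windows of GRCm38 (300 bases around the start, 8 windows matching 6 of the 9 genes), the E-box CACGTG, the sequence bound by the clock factor, was found in 0 windows on either strand, against 7.15% of 32851 windows in all. With so few windows, 0 cannot be told from that share. Slc11a2, Slc40a1 and Heph had no window and were not searched, and sites outside the windows were not looked for.

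Values are in TPM, a unit of transcript abundance scaled by transcript length and by the total of the library, so levels can be set side by side between genes. Uniquely mapped reads ranged from 28.8 M to 48.1 M per library. Epithelial markers were present throughout (Epcam, Cdh1, Krt8, Krt18 and Cdx2 summed to 5120.5 TPM or more in every library), and erythroid markers summed to at most 2.56 TPM. Macrophage and immune markers, 7 genes, summed to 11.6 to 17.5 TPM in control, 14.1 to 19.2 in Bmal1-null, 51.7 to 109 in Apc-min and 45.5 to 92.3 TPM in double-mutant organoids. Of the 4 of them tested between Apc-min and control, Cd14 (2.39), Cd68 (2.19) and Lyz2 (2.18) were higher and Itgam (-1.08) lower, while the defining markers Ptprc and Adgre1 averaged at most 0.12 and 0.0023 TPM in any genotype. Endothelial markers, 4 genes, summed to 0.18 to 0.62 TPM in control and 2.11 to 20.2 TPM in Apc-min organoids, mostly Cdh5. The part of these marker levels in the Apc comparisons was not tested. Bmal1 RNA checked the labels: it lay between 11.3 and 20.7 TPM in control and between 6.31 and 10.9 in Bmal1-null organoids, lower but still detected. A pair of 28 h libraries went against their labels: the library labelled Apc-min had 4.09 TPM of Bmal1, under the 7.2 to 17.3 of the other 21 libraries, and the library labelled double-mutant had 14.7 TPM, over the 2.0 to 6.22 of the other 21. They are called the doubted libraries, and the main results that rest on them are given with and without them. Without them, macrophage and immune markers summed to 67.3 TPM or more in Apc-min and to at most 67.4 TPM in double-mutant organoids. Endothelial markers then summed to at most 11.4 TPM in double-mutant organoids. Since the line of each library is not given, p-values measure the spread between libraries, which may be technical. The libraries of a genotype at each time also carry a lower and a higher library number, and these lower- and higher-numbered sets differed within some genotypes, as described further on. The labels do not say whether a set of a genotype matches the set of that name in another. Comparisons of genotypes within a set therefore rest on number order alone. Reads too short to map averaged 1.3% in both Apc-min genotypes, 6.73% in control and 6.0% in Bmal1-null organoids, and their part in the results was not tested.

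Loss of Bmal1 alone touched few of the iron genes. Against control, Bmal1-null organoids had less Cybrd1 and slightly more Fth1, while the other 7 genes did not pass the test. Within the lower-numbered libraries alone (sets explained above) Slc40a1 (-0.45), Tfrc (-0.26) and Ireb2 (-0.33) were lower as well. The comparison was a limma fit of log2(TPM + 1) with time as a factor, and 450 of 12654 genes (3.56%) had an adjusted p under 0.05, so 2 of 9 is to be read against that share. Fold values given below are of TPM + 1, which understates changes of genes with few TPM. In organoids with the Apc Min allele the same loss went with a different picture: Heph, Slc40a1, Tfrc and Slc11a2 rose, and Fth1 and Ftl1 fell, 6 of the 8 genes tested (Cybrd1 lay under the filter of a mean of 1 TPM in either group). There 60.3% of 12885 genes were called, so the share of iron genes is close to the background. With genotype by library set as a random effect 2 genes (Heph and Slc40a1) were called, or 4 without the doubted libraries, and with set means as units 2, or 1 without the doubted libraries. Of all called genes 40.8% were higher, or 54.4% after median-of-ratios scaling. The direct test of whether Bmal1 loss acted differently in Apc-min and Apc wild-type organoids called 7 of the 9 genes, against 47.7% of 13846 genes, of which 38.0% were positive (52.9% after median-of-ratios scaling). Cybrd1 is among the 7 only through its level in Apc wild-type organoids: its mean was 0.18 TPM in Apc-min organoids and 0.363 TPM in the double mutant, near the floor of the scale, where a fall could hardly be seen. With the means of the library sets as units, 1 gene (Heph) was called.

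The Apc genotype, with its medium, went with larger differences than Bmal1 loss for Cybrd1, Slc11a2 and Heph. With Bmal1 present, Apc-min organoids had less Heph, Cybrd1, Slc11a2, Slc40a1, Tfrc and Aco1 and more Ftl1, Fth1 and Ireb2 than control, so all 9 genes passed, against a background of 81.6% of 13663 genes. Without Bmal1, 7 of 9 passed against 84.5% of 13404 genes: Heph, Cybrd1, Slc11a2, Fth1 and Aco1 fell, and Ftl1 and Slc40a1 rose. The median over the 9 genes was -0.74 and -0.36 on the log2 scale in these comparisons, beside medians of 0.17 and 0.074 over all genes tested. Median-of-ratios scaling moved the first of those genome-wide medians from 0.17 to 0.01, so differences between Apc-min and control are to be read relative to a shift of that size, and the higher share of called genes went from 61.8% to 50.6%. All 12 enterocyte markers fell in both Apc-min comparisons, with median log2 differences of -6.10 and -5.66, and their summed level was 233 to 1163 TPM in Apc-min against 7272 to 10680 TPM in control organoids. In such bulk libraries, fewer cells of a type and less RNA per cell cannot be told apart. Where ranges are said below not to overlap, the share of all genes without overlap was not counted.

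**Figure D1:**
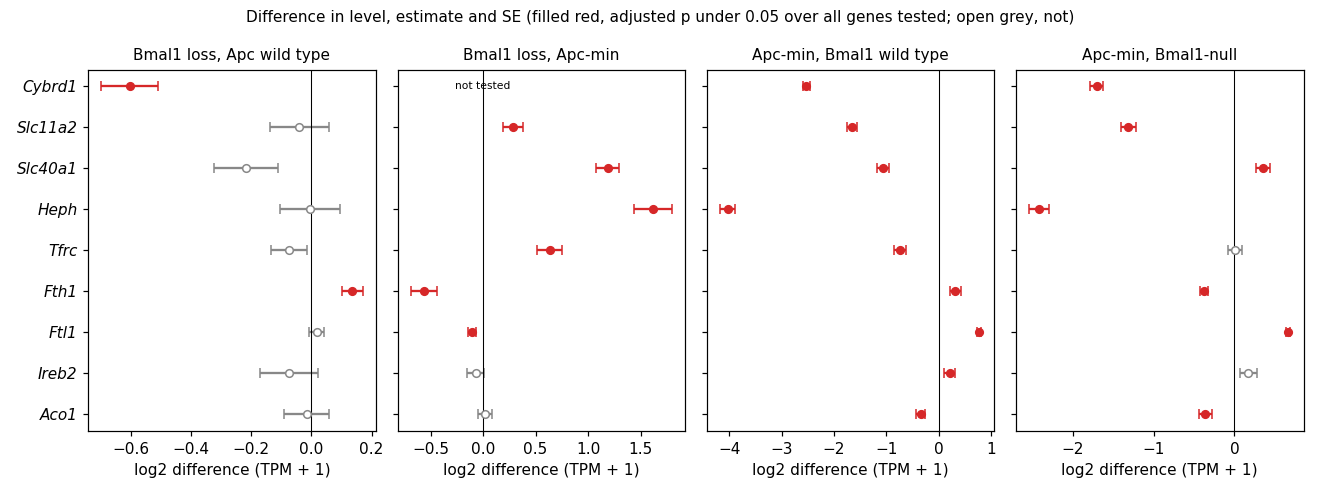
Each panel is a comparison of genotypes, with the log2 difference of TPM + 1 on the horizontal axis and the 9 genes as rows. Points are limma estimates with their standard errors, filled where the adjusted p over all genes tested was under 0.05. Bmal1 loss leaves most points near 0 in Apc wild-type organoids, moves Heph to 1.62 and Slc40a1 to 1.19 in Apc-min organoids, and the Apc-min panels are led by Heph at -4.04 and -2.42.

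Cybrd1, the apical reductase, was the iron gene most changed by loss of Bmal1 in Apc wild-type organoids. Its level in control libraries was 3.38 TPM at the lowest, 5.80 at the median and 9.18 at the highest, and in Bmal1-null libraries 1.97, 3.74 and 5.95 TPM. The ranges overlap, but the mean was lower in Bmal1-null organoids at all 12 time points. The log2 difference was -0.60 ± 0.094 (SE, 22 against 22 libraries, adjusted p 3.18e-05 by limma), a 1.52-fold lower level of TPM + 1. With the means of the lower- and higher-numbered sets as the units it was -0.62 with an adjusted p of 0.639. In both Apc-min genotypes Cybrd1 was close to absent: the highest library had 0.47 TPM in Apc-min and 1.17 TPM in double-mutant organoids, under the lowest control (3.38) and Bmal1-null (1.97) libraries. The log2 difference to the matching Apc wild-type genotype was -2.53 ± 0.072 with Bmal1 and -1.71 ± 0.086 without it, on a scale that understates changes of genes this low.

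Slc11a2, the ferrous iron transporter that works next to that reductase, had more RNA in Apc wild-type organoids than Cybrd1 by a wide margin. Control libraries ran from 54.2 TPM through a median of 95.4 to 121 TPM, and Bmal1-null libraries from 52.4 through 90.9 to 121 TPM. These ranges lie over each other, and the log2 difference of -0.040 ± 0.097 did not pass the test. Apc-min libraries ran from 16.6 through 29.2 to 37.7 TPM and double-mutant libraries from 17.6 through 36.7 to 48.8 TPM, so no library of either reached the lowest library of its Apc wild-type counterpart. How many of all genes separate in this way was not counted. The log2 difference of Slc11a2 was -1.66 ± 0.10 with Bmal1 present (3.15-fold lower) and -1.31 ± 0.094 without it (2.49-fold lower). Within the Apc-min organoids it rose by 0.29 ± 0.094 with loss of Bmal1 (adjusted p 0.00943), but within the higher-numbered set the difference was 0.048 with an adjusted p of 0.711.

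Heph, the oxidase that acts with ferroportin, separated the Apc genotypes and, within Apc-min organoids, the Bmal1 genotypes. It was at 29.3 TPM in the lowest, 51.8 in the median and 71.2 in the highest control library, and at 32.7, 53.2 and 64.9 TPM in Bmal1-null libraries, a log2 difference of -0.0051 ± 0.10 that did not pass. In Apc-min libraries it was at 0.73, 2.2 and 8.66 TPM, the highest being the doubted library, without which the top value was 3.29 TPM. In double-mutant libraries it was at 1.48, 9.62 and 11.9 TPM, the lowest being the other doubted library, without which the bottom value was 4.4 TPM. Leaving out the doubted libraries, every double-mutant library lay above every Apc-min library, with no count of how many of all genes do so. The log2 difference made by Bmal1 loss in Apc-min organoids was 1.62 ± 0.18 (adjusted p 4.49e-09, 3.07-fold), and 1.8 without the doubted libraries. Against the Apc wild-type genotypes the log2 difference of Heph was -4.04 ± 0.15 with Bmal1 (16.4-fold lower) and -2.42 ± 0.12 without it (5.34-fold lower), as folds of TPM + 1. In TPM, mean Heph was 50.4 in control, 49.7 in Bmal1-null, 2.33 in Apc-min and 8.83 in double-mutant organoids.

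Slc40a1, the exporter itself, was ordered otherwise across the genotypes: it was lowest in Apc-min organoids and as high in double-mutant organoids as anywhere. Control libraries ran from 8.43 TPM through 12.5 to 20.7 TPM, and Bmal1-null libraries from 5.88 through 11.3 to 16.7 TPM, which did not differ beyond their spread (log2 difference -0.22 ± 0.11, adjusted p 0.478). Apc-min libraries ran from 4.21 through 5.60 to 12.9 TPM, or to 8.93 TPM without the doubted library. double-mutant libraries ran from 5.11 through 15.6 to 19.96 TPM, or from 7.68 TPM without the doubted library. Bmal1 loss in Apc-min organoids raised it by 1.19 ± 0.11 (adjusted p 1.35e-10, 2.28-fold), and the mean was higher at 11 of 12 time points, the exception being 28 h, the time of the doubted libraries. The Apc-min difference was -1.06 ± 0.12 with Bmal1 present and 0.36 ± 0.091 without it, and the interaction of 1.41 ± 0.15 (adjusted p 2.65e-12) tests that these differ in size. With set means as units its adjusted p was 0.0597. The rise in the Bmal1-null background, on which a change of direction rests, did not pass within the lower-numbered set alone (0.23, adjusted p 0.0716).

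Tfrc, the receptor for transferrin, was with Ireb2 a gene that did not pass the test between Apc genotypes without Bmal1. Control libraries ran from 63.3 TPM through 87.1 to 126 TPM, and Bmal1-null libraries from 51.8 through 80.3 to 124 TPM. Double-mutant libraries ran from 43.4 (50.6 without the doubted library) through 86.7 to 112 TPM. These 3 genotypes overlap across almost their whole ranges. Apc-min libraries were lower, from 33.5 through 56.01 to 86.8 TPM. Tfrc fell by 0.74 on the log2 scale in Apc-min against control (SE 0.12, adjusted p 1.03e-06) and rose by 0.63 ± 0.12 with Bmal1 loss in Apc-min organoids (adjusted p 4.77e-05). With a random effect for genotype by library set, the adjusted p of that rise was 0.0601. Without Bmal1 the Apc-min difference was 0.0087 ± 0.082 (adjusted p 0.922), with a sign that turned to -0.062 after median-of-ratios scaling.

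Both ferritin genes were abundant, ranking between place 27 and place 83 by mean TPM in every genotype. Fth1 and Ftl1 together took 0.4% of all TPM in control and 0.598% in Apc-min organoids on average. In Apc-min organoids the median share was 0.519% and the range 0.473% to 0.935%. Light-chain RNA separated the Apc genotypes. Ftl1 ran from 1466 TPM through 1717 to 1867 TPM in control, from 1619 through 1730 to 1967 in Bmal1-null, from 2610 through 2920 to 3612 in Apc-min, and from 2359 through 2754 to 3097 in double-mutant organoids. No Apc-min library of either Bmal1 genotype came down to the highest Apc wild-type library of its pair. Ftl1 rose by 0.78 ± 0.036 with Bmal1 (1.71-fold) and by 0.66 ± 0.030 without it (1.58-fold). The small fall with Bmal1 loss in Apc-min organoids (-0.10 ± 0.037, adjusted p 0.0155) was -0.036 with an adjusted p of 0.59 after median-of-ratios scaling.

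Fth1, the heavy chain, moved apart from the light chain. Control libraries ran from 1872 TPM through 2242 to 2748 TPM, Bmal1-null from 2249 through 2459 to 2866, Apc-min from 1976 through 2370 to 5740, and double-mutant from 1596 through 1871 to 3350 TPM, the last top value being the doubted library. Without the doubted libraries the lowest Apc-min value was 2060 TPM and the highest double-mutant value 2274 TPM. Bmal1 loss in Apc wild-type organoids went with a rise of 0.14 ± 0.034 (adjusted p 0.0118, 1.1-fold) that was seen at all 12 time points but had an adjusted p of 0.488 after median-of-ratios scaling and 0.186 with library set as a random effect. In Apc-min organoids Fth1 was lower without Bmal1, with a log2 difference of -0.56 ± 0.13 (adjusted p 0.000335), or -0.63 without the doubted libraries. With library set as a random effect the value was -0.61 with an adjusted p of 0.0612. The ratio of Fth1 to Ftl1 in TPM averaged 1.32 ± 0.078 (SD, n = 22) in control, 1.43 ± 0.084 in Bmal1-null, 0.996 ± 0.28 in Apc-min and 0.702 ± 0.12 in double-mutant organoids. The Apc-min mean lies between its library sets. Without the doubted library the ratio there was 1.16 to 1.59 in the lower-numbered set, and it was 0.742 to 0.856 in the higher-numbered set. Processed ferritin pseudogenes share sequence with both genes. Among those with a ferritin symbol the highest, Ftl1-ps1, averaged at most 2.28 TPM. Pseudogenes under other names were not looked for.

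**Figure D2:**
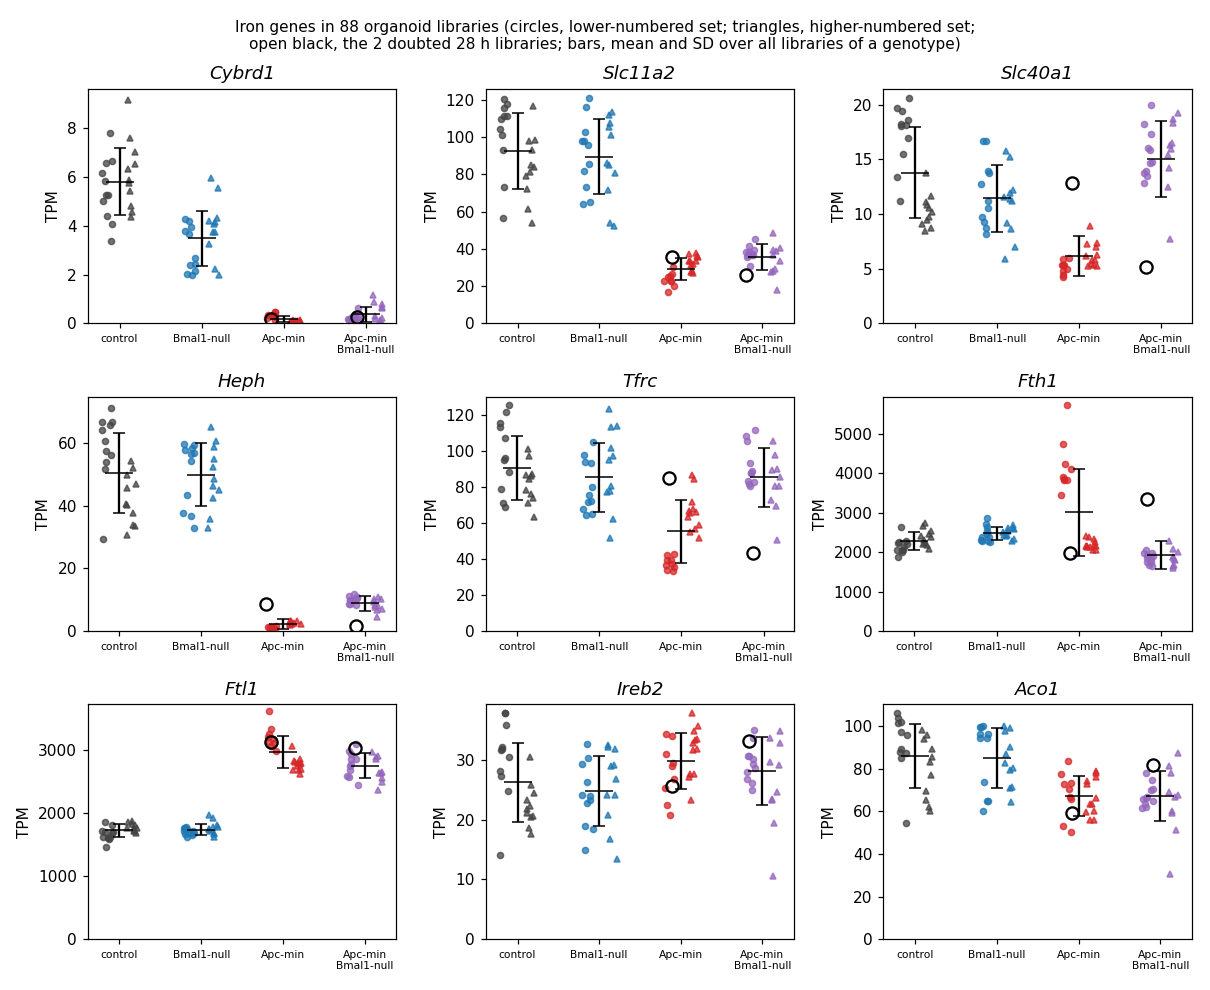
TPM of each gene (vertical axes, linear from 0) in every library of the 4 genotypes, circles for the lower-numbered and triangles for the higher-numbered set, with the mean and SD of the 22 libraries as bars and the doubted libraries as open black circles. Heph, Slc11a2, Cybrd1 and Ftl1 separate the Apc genotypes without overlap, and the share of all genes that do so was not counted. The doubted Apc-min library has 8.66 TPM of Heph and the doubted double-mutant library 1.48 TPM, each inside the range of the other genotype.

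The regulators are encoded by Ireb2 and Aco1. Ireb2 ran from 14.1 TPM through 25.4 to 37.9 TPM in control, from 13.5 through 24.1 to 32.7 in Bmal1-null, from 20.7 through 30.2 to 37.96 in Apc-min, and from 10.6 through 29.2 to 35 in double-mutant organoids, and all 4 ranges overlap. Its difference of 0.21 ± 0.098 between Apc-min and control had an adjusted p of 0.0496, was lost in 29 of the 44 fits that left out 1 library each (adjusted p 0.0185 to 0.0923), and was -0.0045 within the lower-numbered set. Aco1 ran from 54.5 through 88.7 to 107 TPM in control, from 60.4 through 88.6 to 100 in Bmal1-null, from 50.4 through 66.6 to 83.5 in Apc-min, and from 30.7 through 66.9 to 87.5 TPM in double-mutant organoids. The log2 difference of Aco1 was -0.35 ± 0.078 in Apc-min with Bmal1 (adjusted p 0.000149) and -0.36 ± 0.085 without it (adjusted p 0.000253). With library set as a random effect the first of these had an adjusted p of 0.128. Bmal1 loss called neither regulator over all libraries in either Apc background, although Ireb2 passed in the lower-numbered set of Apc wild-type organoids (-0.33, adjusted p 0.0325) and in the higher-numbered set of Apc-min organoids (-0.28, adjusted p 0.0405), and Aco1 passed in Apc-min organoids after median-of-ratios scaling (0.086, adjusted p 0.0377).

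The library sets bear directly on Fth1, Tfrc and Heph in Apc-min organoids. Within that genotype the lower-numbered set, without its doubted library, had 3462 TPM of Fth1 at the lowest, 3909 at the median and 5740 at the highest over 9 libraries, and the higher-numbered set 2060.02, 2167 and 2401 TPM over 12 libraries. The sets do not overlap, and the higher-numbered set lies inside the control range of 1872 to 2748 TPM. Tfrc ran the other way, from 33.5 through 37.1 to 42.9 TPM in the lower-numbered set without the doubted library and from 52.02 through 65.95 to 86.8 TPM in the higher-numbered set. Heph was also lower there, 0.73 through 1.11 to 1.53 TPM against 2.01 through 2.71 to 3.29 TPM. As log2 differences of the lower- minus the higher-numbered set, with time as a factor and all libraries, these were 0.81 ± 0.10 for Fth1, 0.21 ± 0.033 for Ftl1, -0.66 ± 0.12 for Tfrc, -0.59 ± 0.21 for Heph, -0.43 ± 0.11 for Slc11a2 and -0.23 ± 0.082 for Ireb2, 6 of 8 genes called against a background of 59.5%. Without the doubted libraries Slc40a1 (-0.31, adjusted p 0.000794) also passed, 7 of 8, and the share of all genes called in that fit is not given here. As single libraries were left out, 4 to 7 genes were called: Heph lost its call in 18 of 22 fits and Ireb2 in 10. Over those 22 fits the Heph difference ran from -0.83 to -0.53, with adjusted p from 1.93e-07 to 0.0684 by limma. The doubted Apc-min library, with 8.66 TPM of Heph, is in the lower-numbered set.

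The Fth1 rise in Apc-min against control therefore differs between the sets: it was 0.32 ± 0.11 (adjusted p 0.00913) over all libraries and -0.12 (adjusted p 0.00789) when only higher-numbered libraries of both genotypes were compared. Its adjusted p was 0.295 after median-of-ratios scaling. For Heph, Slc40a1 and Tfrc the rise with Bmal1 loss in Apc-min organoids passed within each set. In the interaction test the lower-numbered set called 7 genes and the higher-numbered set 4, and Tfrc (0.245, adjusted p 0.241), Ftl1 (-0.03, adjusted p 0.639) and Slc11a2 (-0.0077, adjusted p 0.978) did not pass in the latter. The shares of all genes called within each set are not given here.
Other genes moved with the sets in Apc-min organoids. All 8 hypoxia-responsive genes were higher in the lower-numbered set, with a median log2 difference of 1.18, and their summed level, leaving out the doubted library, was 759 to 1513 TPM against 116 to 1059 TPM. All 7 tested crypt and proliferation markers were lower there, with a median of -0.83 and summed levels of 442 to 734 TPM against 940 to 1125 TPM. Enterocyte markers summed to 694 to 1163 TPM against 233 to 390 TPM. The part of oxygen supply, cell state or organoid line in the Fth1, Tfrc and Heph values was not tested.

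**Figure D3:**
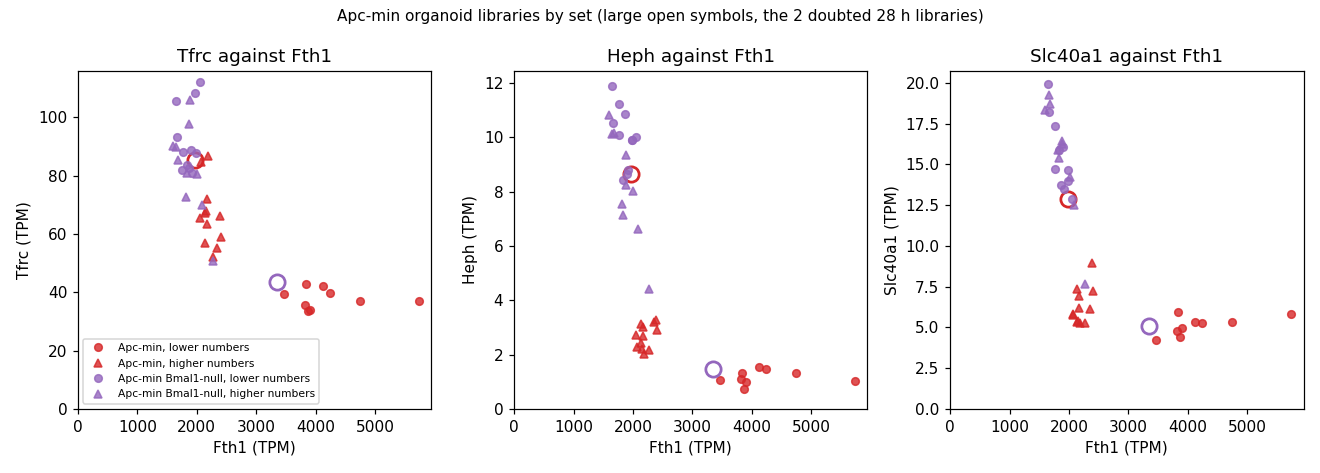
Each point is an Apc-min (red) or double-mutant (purple) library, with Fth1 in TPM on the horizontal axes and Tfrc, Heph or Slc40a1 in TPM on the vertical axes. Circles are lower-numbered and triangles higher-numbered libraries, and the large open symbols are the doubted libraries. The lower-numbered Apc-min libraries sit apart at 3462 TPM of Fth1 or more with Tfrc at most 42.9 TPM, and each doubted library lies with or next to the other genotype.

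In control organoids the sets differed too, and in other genes. Slc40a1 was 11.2 to 20.7 TPM in the lower-numbered and 8.43 to 13.7 TPM in the higher-numbered set, a log2 difference of 0.68 ± 0.081 (adjusted p 0.000216). Heph (0.48 ± 0.10), Ireb2 (0.39 ± 0.11) and Tfrc (0.20 ± 0.061) were also higher, and Fth1 (-0.17 ± 0.047) and Ftl1 (-0.10 ± 0.033) lower, 6 of 9 genes against 24.4% of all genes, of which 79.5% were higher (53.8% after median-of-ratios scaling, which lowered the median over all genes from 0.12 to 0.0048). That count ranged from 2 to 8 as single libraries were left out, and only Slc40a1 and Heph were called with no filter on low values. The sets are compared within a time, so leaving out either 38 h library drops that time: then Slc11a2 (0.36) and Aco1 (0.31) passed as well. The lower-numbered 38 h library had the lowest control values of Heph (29.3 TPM), Ireb2 (14.1 TPM) and Aco1 (54.5 TPM). In Bmal1-null organoids 0 of 9 genes (1 at an unadjusted p under 0.05) and 0.502% of all genes differed between the sets by limma, and in double-mutant organoids 0 of 8 (0 unadjusted) and 2.06%. The median-of-ratios fits also called 0 in both.

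Over the 22 h of sampling, few iron genes passed a test for a daily rhythm, and the calls depended on the fit. Cosine curves with a period of 24 h called 0 of 9 genes in control (2 at an unadjusted p under 0.05, background 0.0557%), 0 of 9 in Bmal1-null (3 unadjusted, background 0% with 864 genes unadjusted), 1 of 8 in Apc-min (background 12%) and 0 of 8 in double-mutant organoids (3 unadjusted, background 2.59%). The gene called was Aco1 in Apc-min, with an amplitude of 0.18 ± 0.047 on the log2 scale and a fitted peak at 38.97 h (adjusted p 0.0426). Its mean went from 55.98 TPM at 24 h to 78.95 TPM at 38 h and 66.02 TPM at 46 h. The call was lost without the doubted libraries (adjusted p 0.0818), after median-of-ratios scaling (0.0549) and with a linear trend in the fit (adjusted p of 1), and in 16 of the 22 fits that left out 1 library each. With library set in the fit and without the doubted libraries, 5 of 8 genes were called in Apc-min organoids: Aco1, Heph (amplitude 0.19, adjusted p 0.00839), Slc40a1 (0.17, adjusted p 0.0275), Fth1 (0.13, adjusted p 0.0256) and Ftl1 (0.064, adjusted p 0.044). The background of 12% belongs to the fit without these changes, and the share of all genes called by the changed fit is not given here. In control the largest fitted amplitudes were those of Heph, 0.24 ± 0.10, and Aco1, 0.20 ± 0.072, with adjusted p of 0.42 and 0.385. Fth1 in double-mutant organoids passed only without the doubted library, with an amplitude of 0.12 (adjusted p 0.0257). Tests of a difference in rhythm between Bmal1 genotypes called 0 of 9 iron genes in Apc wild-type (1 unadjusted, background 0.0395%) and 0 of 8 in Apc-min organoids (1 unadjusted, background 0% with 880 genes unadjusted).

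A linear trend over the sampling passed for Tfrc and Slc40a1 in Bmal1-null organoids. With only 22 h sampled, a cosine with a period of 24 h cannot be told from a steady change. Tfrc averaged 66.5 ± 9.63 TPM (SD, n = 6) from 24 to 28 h and 111 ± 9.70 TPM (n = 5) from 42 to 46 h in that genotype, and Slc40a1 averaged 8.77 ± 2.40 and 14.6 ± 2.14 TPM. As a linear trend, Tfrc rose by 0.73 ± 0.14 on the log2 scale over 22 h (adjusted p 0.00231, 1.66-fold) and Slc40a1 by 0.72 ± 0.18 (adjusted p 0.0173, 1.65-fold), 2 of 9 genes against 6.71% of all genes. After median-of-ratios scaling Cybrd1 (0.59, adjusted p 0.0319) and Slc11a2 (0.47, adjusted p 0.0327) passed as well. In control the same trends were 0.47 ± 0.16 for Tfrc and 0.32 ± 0.27 for Slc40a1, and 0 of 9 genes passed (4 unadjusted, background 2.2%), with Tfrc called after median-of-ratios scaling (0.57, adjusted p 0.00692) and Fth1 with library set in the fit (0.28, adjusted p 0.0134). Whether the trends differed between the genotypes was not tested.
In Apc-min organoids 1 of 8 genes was called, Aco1 at 0.32 ± 0.12 (adjusted p 0.0496), against 31.2% of all genes, of which 71.2% rose (49.3% after median-of-ratios scaling). That call was lost without the doubted libraries (adjusted p 0.0789). With library set in the fit and without the doubted libraries, Slc40a1 (0.46), Heph (0.44) and Fth1 (0.31) passed in its place. In double-mutant organoids 0 of 8 passed (3 unadjusted, background 8.44%, of which 66.6% rose, or 50.2% after median-of-ratios scaling), and without the doubted library Fth1 passed at -0.25 (adjusted p 0.0254).

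**Figure D4:**
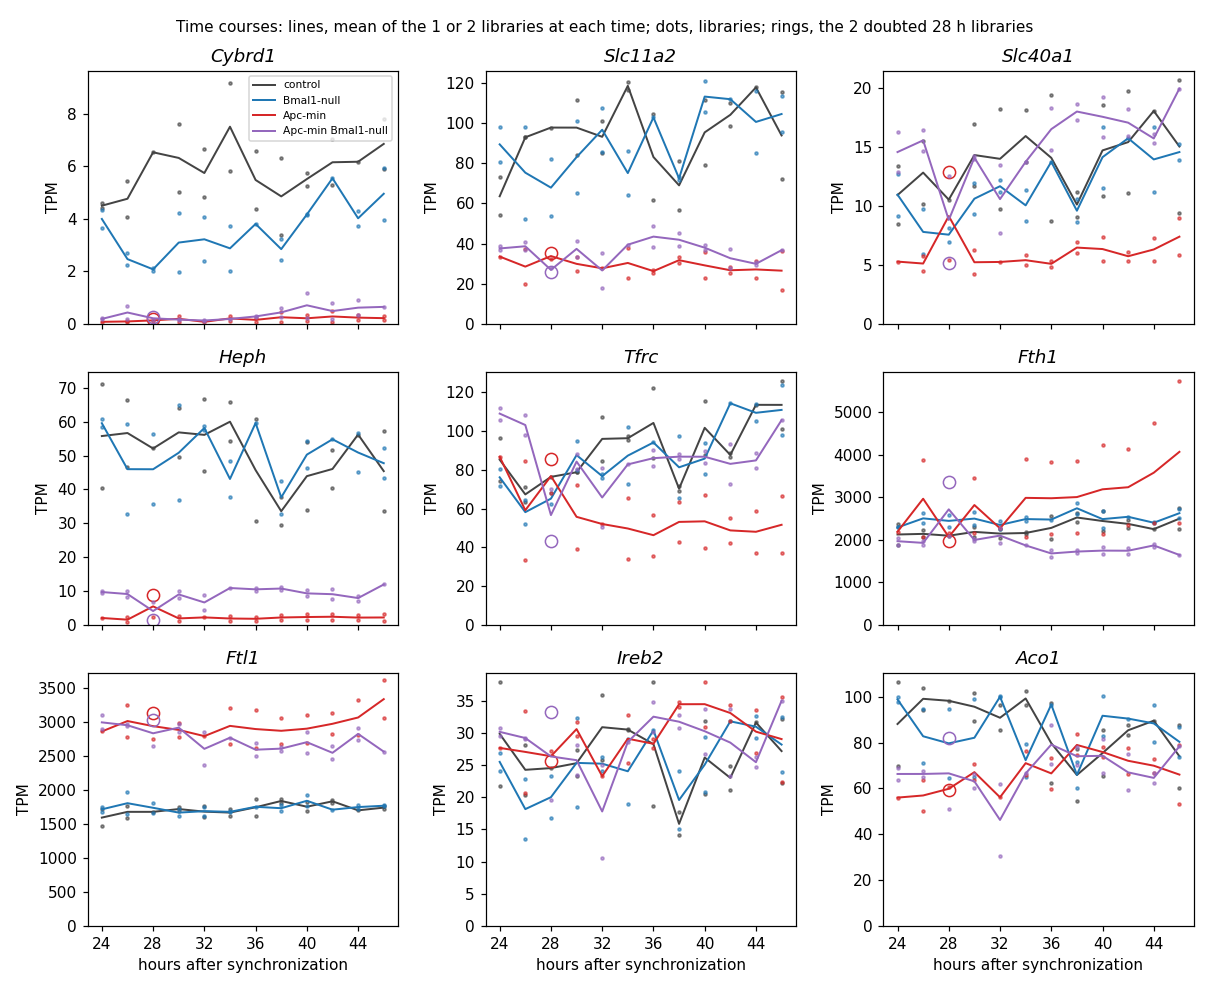
TPM of each gene (vertical axes, from 0) against hours after synchronization, with a line through the mean of the 1 or 2 libraries of each genotype at each time, dots for libraries and rings for the doubted libraries. Tfrc and Slc40a1 climb in Bmal1-null organoids from means of 66.5 and 8.77 TPM at 24 to 28 h to 111 and 14.6 TPM at 42 to 46 h.

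The rest of the iron pathway was described from lists of its genes. In Apc-min against control 81.6% of all genes were called, 61.8% of them higher, and the counts of this and the next paragraph are to be read against those shares. Among other reductases and oxidases, 3 of 6 tested genes were higher and 1 lower in Apc-min than in control organoids: the metalloreductases Steap1 (1.43) and Steap2 (1.12) and the cytochrome Cyb561 (0.14, which turned negative after median-of-ratios scaling) were higher, and Steap3 (-1.92), the reductase that works beside the transferrin receptor in endosomes, was lower. Of the genes for other transport and uptake, 4 of 12 were higher and 7 lower (3 and 7 after that scaling, under which Slc25a28 changed sides). They were led downward by Abcg2 (-2.81), a haem and drug exporter, Lrp1 (-2.60), a receptor for haem bound to hemopexin, and Slc39a14 (-1.28), which carries zinc and non-transferrin iron, while the lysosomal haem transporter Slc48a1 (1.28) was higher. In the Bmal1-null background 5 were higher and 7 lower, with Lrp1 at -3.35 and Abcg2 at -3.21. Among the regulators, 4 of 11 were higher and 4 lower, led by Hif1a (1.76), the hypoxia-inducible factor subunit, Bmp6 (1.29), Tmprss6 (1.29) and Epas1 (-1.04), which encodes HIF-2α, the factor known to drive Cybrd1 and Slc11a2 in the duodenum. Hepcidin RNA, from Hamp, averaged at most 0.55 TPM in any genotype.

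Chaperones and ferritin turnover gave 3 higher and 1 lower of 5 genes in Apc-min against control: Glrx3 (1.13), Bola2 (0.35) and Pcbp1 (0.28), which hand iron to client proteins, were higher, and Ncoa4 (-0.57), the receptor that takes ferritin to the lysosome, was lower. Genes of haem synthesis and breakdown were higher in 8 of 12 cases and lower in none (5 and 3 after median-of-ratios scaling), led by Hmox1 (2.40), the haem oxygenase that frees iron from haem, which averaged 11.02 TPM in control and 78.7 TPM in Apc-min organoids, and by Blvrb (1.25). Iron-sulfur cluster assembly was split, 6 higher and 5 lower of 12, and Nubp1 (0.46), Lyrm4 (0.42) and Glrx5 (0.41) were among the higher genes.
Loss of Bmal1 in Apc wild-type organoids called only Abcg2 (0.67) among the tested genes of these 6 lists. In Apc-min organoids, where 60.3% of all genes were called and 40.8% of those were higher, the same loss lowered 7 of 11 regulators and raised 2, with Egln3 (-2.05), an oxygen-sensing prolyl hydroxylase, Bmp6 (-1.36), Tmprss6 (-0.92) and Hfe (0.67) the largest. It also lowered 6 of the 8 hypoxia-responsive genes, whose part in the iron values was not tested. Their summed level was 104 to 1513 TPM in Apc-min and 75.1 to 921 TPM in double-mutant organoids. Without the doubted libraries it was 116 to 1513 TPM and 75.1 to 618 TPM. Transport genes were split, 4 higher and 4 lower of 11 (7 and 4 after median-of-ratios scaling), with Lrp1 (-0.73), Slc39a8 (0.64), Flvcr2 (-0.54) and Slc48a1 (-0.38) leading, and haem genes were 3 higher and 7 lower of 12 (3 and 4 after that scaling), with Blvrb (-0.77) and Hmox1 (-0.54) lowered most.

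The genes whose variation was most like that of each iron gene were found from deviations of log2(TPM + 1) from the genotype mean over 88 libraries, among 10435 genes with a mean of at least 5 TPM. These values are descriptions, since libraries of a genotype share lines, sets and times. For Heph the nearest were Cftr (Pearson r 0.95), Gcnt3 (0.94) and Cnnm4 (0.94), for Slc40a1 Gcnt3 (0.83), Ugt2b34 (0.80) and Ifngr1 (0.80), and Tarbp1 (0.87) and Aebp2 (0.87) were among the nearest to Slc11a2. For Cybrd1 they were Slc30a10 (0.80), Mttp (0.72) and Duox2 (0.68). Tfrc lay nearest to Slc16a1 (0.91), Gtpbp10 (0.89) and Mphosph10 (0.89), Fth1 to Map1lc3a (0.94), Prdx5 (0.93) and H2-T23 (0.93), and Ftl1 to Tmsb10 (0.81), Bri3 (0.75) and Junb (0.75). The regulators were closest to Pank3, Lmbrd2 and Tm9sf3 (Ireb2, 0.98, 0.97 and 0.97) and to Dag1, Sec24c and Pxn (Aco1, 0.98, 0.97 and 0.97). Without the doubted libraries none of the nearest genes named for Slc40a1 and Heph stayed among the nearest 3 (Slc34a2 and Fgd4 then came first), while Slc16a1, Tmsb10 and Dag1 kept the first place for Tfrc, Ftl1 and Aco1. Over those 86 libraries Fth1 and Heph had an r of -0.73, Fth1 and Tfrc -0.60, Fth1 and Ftl1 0.72, and Ireb2 and Aco1 0.82.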

How the data were processed

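RNA from 88 of 96 labelled libraries was analysed, 22 per genotype. The other 8 were not used here. Per the labels, strand-specific libraries were read as 101-base Read 1. Per the submitters' processing notes, STAR 2.5 and RSEM 1.3.0 were used with GRCm38, and the authors deposited TPM per gene, which keeps no depth. The authors also deposited mapping summaries per library, per the file headers: the count of uniquely mapped reads and the percent of reads too short to map, used here only to describe depth. Libraries were grouped by the genotype in their labels. TPM was taken to log2(TPM + 1), genes with a mean of at least 1 TPM in a compared group were kept, and limma 3.58.1 (R 4.3.3) was fitted over all of them with Benjamini-Hochberg adjustment and a threshold of 0.05. Level comparisons had time as a factor, rhythms a 24 h cosine and slopes a linear term. The fits were tested on simulated data with independent noise for each library. That test does not cover libraries of a set or line that vary together.

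The members and gene lists were chosen with earlier results of these data known. The comparison of library sets, and leaving out the doubted libraries, were chosen after their values were seen. Named genes were the 9 members, up to 4 called genes with the largest difference per iron list and comparison, and the 3 genes nearest in pattern to each member. Others named were chosen after their values were seen. A few of the genes selected in this way are not reported here. Alternatives were pseudocount, filter, median-of-ratios scaling, library set and single libraries left out.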

Additional observations from a re-analysis of the deposited data

Results flagged for a closer look

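For 7 genes the effect of Bmal1 loss differed between Apc-min and Apc wild-type organoids by the interaction term of the limma fit over 88 libraries. The log2 interaction was 1.60 for Heph, 1.41 for Slc40a1, 0.82 for Cybrd1, 0.74 for Tfrc, 0.33 for Slc11a2, -0.69 for Fth1 and -0.12 for Ftl1. The value of Cybrd1 mostly reflects its fall of -0.60 in Apc wild-type organoids, since it was near 0 TPM in both Apc-min genotypes and was not tested there. With the means of the library sets as units, Heph was the 1 gene still called, and 0 were called when the doubted libraries were also left out.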

How the results depend on the processing

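No paired analysis was possible because library numbers are unique to each library. Quantile normalization was not run, since its columns name only a time. A pseudocount of 0.1 and a filter at 5 TPM moved no count of called iron genes by over 1.5 times, and the cause of the moves below was not tested.

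For Bmal1 loss in Apc wild-type organoids, 2 genes were called, against 1 after median-of-ratios scaling, 1 with genotype by library set as a random effect, 0 with set means as units, 5 in the lower-numbered set, 1 in the higher-numbered set and 1 with all 4 genotypes in the fit. For Bmal1 loss in Apc-min organoids, 6 were called, against 2 with the random effect (4 without the doubted libraries), 2 with set means and 1 with set means and no doubted libraries. For Apc-min against control, 9 fell to 5 with set means and no doubted libraries. The interaction called 7, against 1 with set means, 0 with set means and no doubted libraries, and 4 in the higher-numbered set, with or without the doubted libraries. Set means leave 2 units per genotype. The shares of all genes called under these alternatives are not given here, so their counts have no background beside them.

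In Apc-min against control, Ireb2 reversed to -0.0045 in the lower-numbered set and Fth1 to -0.12 in the higher-numbered set, with or without the doubted libraries. The Slc11a2 interaction reversed to -0.0077 in the higher-numbered set, and the Heph slope in Apc-min organoids to 0.44 with library set in the fit and no doubted libraries.

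The rhythm in Apc-min organoids (1 gene) went to 0 with no filter, after median-of-ratios scaling, without the doubted libraries, with a linear term and with time as a factor, and to 5 with library set in the fit and no doubted libraries. In double-mutant organoids rhythm and slope each went from 0 to 1 without the doubted library, with or without library set in the fit. The slope count in control went from 0 to 1 after median-of-ratios scaling and with library set in the fit, and in Bmal1-null organoids from 2 to 4 after that scaling. In Apc-min organoids it went from 1 to 0 with no filter and without the doubted libraries, to 2 with library set in the fit and to 3 with that term and no doubted libraries. The set difference in control went from 6 to 2 with no filter.

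Leaving out 1 library at a time gave 0 to 1 for rhythm in Apc-min and in double-mutant organoids, 0 to 1 for slope in control, 0 to 2 in Apc-min and 0 to 1 in double-mutant organoids, and 2 to 8 and 4 to 7 for the set difference in control and Apc-min organoids. Slc11a2 lost its interaction call in 49 of 88 such fits. The 1 gene gained in control came without the higher-numbered 24 h library (Fth1 slope 0.30, adjusted p 0.0423). In Apc-min organoids the slopes of Fth1 (0.79) and Tfrc (-0.71) passed without the lower-numbered 26 h library, and that of Ireb2 (0.38) without the lower-numbered 46 h library. In double-mutant organoids Ftl1 (-0.19) passed without the higher-numbered 32 h library, and without it Ireb2 passed between Apc genotypes lacking Bmal1 (0.23, adjusted p 0.0176). Cybrd1 passed in Bmal1-null organoids (slope 0.75) without the higher-numbered 24 h library.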
